A study of Mus musculus with 4 samples.

Results

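The genes of the serine/threonine protein phosphatases are described here by the peaks that a PHF2 antibody and IgG gave at them in mouse skeletal muscle. The members are the protein-coding genes whose symbol starts with Ppp1, Ppp2, Ppp3, Ppp4, Ppp5, Ppp6 or Ppm1, except for Ppp1r3a and Ppp1r3c, which the rule leaves out. They number 87 of the 21887 protein-coding genes that RefSeq places on the assembled chromosomes. The genes were chosen by symbol with earlier results of these peak lists known, and they are grouped by peak presence, so presence and peak height are given as descriptions without a test. By symbol 24 encode catalytic subunits, among them the 12 Ppm1 genes, and 63 regulatory ones.

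PHF2 is a chromatin protein that carries a PHD finger, a module that reads methylated histone tails, and a JmjC demethylase domain. CUT&RUN, in which an antibody tethers a nuclease that cuts and releases the nearby DNA, was applied to gastrocnemius, a muscle of the calf, from male C57BL/6 mice aged 4 weeks. The KO group carried Phf2 flox/flox with Acta1 Cre+, a Cre that acts in skeletal muscle fibres, so other cells of the muscle may keep the gene. The Ctrl group carried Phf2 flox/flox without Cre (Acta1 Cre-). Both groups thus share the floxed alleles. The 4 libraries, 1 per group, were KO PHF2, Ctrl PHF2, KO IgG and Ctrl IgG, where IgG stands for antibody without a chosen target and measures background. The authors' lists held 161, 1621, 152 and 77 peaks in that order. No group had a replicate, so every value describes a library and no test between genotypes was possible. Whether a library pooled several animals is not stated in the labels. Peak lists do not measure the loss of Phf2, so the genotype labels were not checked here.

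Protein phosphatases remove phosphate from serine and threonine and so reverse the action of kinases. PP1 and PP2A act as a catalytic subunit joined to one of many regulatory subunits, which choose the substrate and the place of action. Calcineurin (PP2B, the Ppp3 genes) is switched on by calcium and calmodulin and is known in muscle for driving NFAT-dependent programmes of slow fibres. The PPM1 enzymes are metal-dependent and mostly work without a regulatory subunit.

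Peaks were counted at a gene when they lay inside it or within 1 kb of either annotated end, with at least 1 bp in that region. In the KO PHF2 list 3 of the 87 phosphatase genes had a peak (3.45%, Wilson 95% interval 1.18 to 9.65), beside 0.699% of all protein-coding genes. In the Ctrl PHF2 list 16 of 87 had one (18.4%, 11.7 to 27.8), beside 6.88% of all. All 3 genes of the KO list (Ppp3ca, Ppp1r2 and Ppp1r12a) were also in the Ctrl list, while 13 had a Ctrl peak and no KO peak, and none had a KO peak alone. Of all 21887 protein-coding genes, 1382 had a Ctrl peak and no KO peak, and 30 had a KO peak alone. A peak in both PHF2 lists was found at 0.562% of all genes, which were 123 of the 153 genes in the KO list. The shared genes were 3 of the 16 phosphatase genes in the Ctrl list (18.8%), against 8.17% for all genes in that list. With so few genes this share is imprecise, and at Ppp1r12a the KO and Ctrl peaks did not overlap. A missing peak means only that none passed the caller's threshold, since reads at the site were not measured in the other library. The lists also differ in length: among the 161 Ctrl peaks of highest fold enrichment, as many as the KO list holds, 5 phosphatase genes had a peak, beside 0.758% of all genes, and none of the 5 was among the 3 in the KO list. At a -log10 q of at least 5 the numbers were 1 gene in the KO list (Ppp3ca; 0.215% of all genes) and 14 in the Ctrl list (3.82% of all genes).

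No phosphatase gene had a peak in the KO IgG list, where 0.123% of all genes had one, or in the Ctrl IgG list, where 0.0548% had one. For 87 genes a count of 0 allows a share of up to 3.45%, so these lists were too short to show a difference from all genes. None of the phosphatase PHF2 peaks overlapped an IgG peak. The same held for the full PHF2 lists. Whether PHF2 peaks were called against IgG is stated nowhere in the labels.

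**Figure D1:**
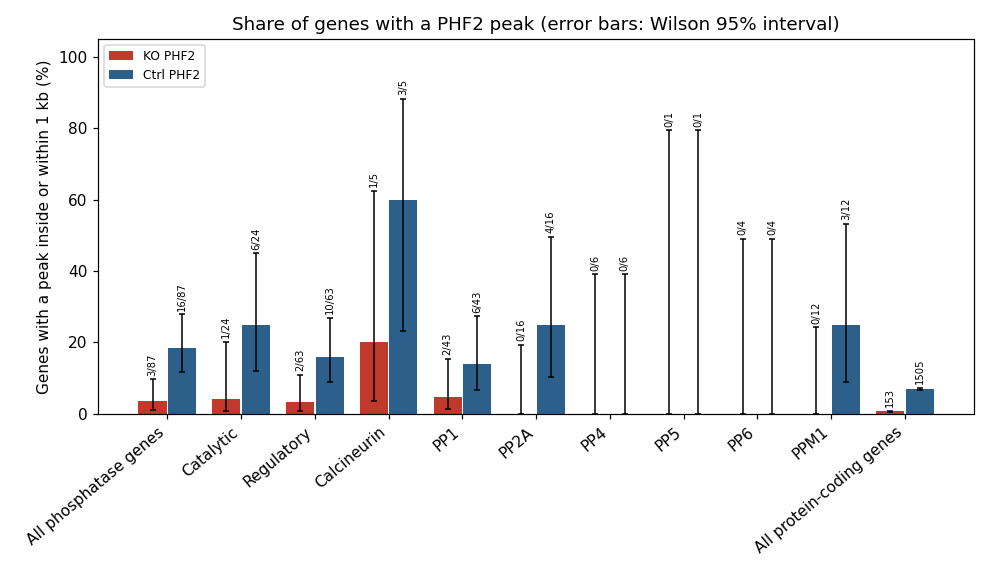
Share of genes with a PHF2 peak inside or within 1 kb, in percent, for KO PHF2 (red) and Ctrl PHF2 (blue), by role and family, with Wilson 95% intervals for counting error as error bars and the counts above them. Calcineurin had peaks at 1 of 5 genes in the KO list and 3 of 5 in the Ctrl list, while PP4, PP5 and PP6 had none in either. Of all protein-coding genes 0.699% had a KO peak and 6.88% a Ctrl peak.

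Catalytic subunit genes had a peak in 1 of 24 cases in the KO list (4.17%, Wilson interval 0.739 to 20.2) and in 6 of 24 in the Ctrl list (25%, 12.0 to 44.9). Regulatory subunit genes had one in 2 of 63 cases in the KO list (3.17%, 0.875 to 10.9) and in 10 of 63 in the Ctrl list (15.9%, 8.86 to 26.8). Without the 12 Ppm1 genes, the catalytic class had 1 of 12 in the KO list (8.33%, 1.49 to 35.4). In the Ctrl list it had 3 of 12 (25%, 8.89 to 53.2). The intervals of these classes overlap widely in each list. Of all protein-coding genes 0.699% had a KO peak and 6.88% a Ctrl peak. By family, the Ctrl list held 3 of 5 calcineurin genes (Wilson interval 23.1 to 88.2%) and 6 of 43 PP1 genes (6.56 to 27.3%). The PP1 interval includes the share of all genes. The Ctrl list also held 4 of 16 PP2A genes (10.2 to 49.5%) and 3 of 12 PPM1 genes (8.89 to 53.2%). It held none of the 6 PP4 genes, the 4 PP6 genes or the PP5 gene Ppp5c. With so few genes these zeros are not distinguishable from the share in all genes.

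Calcineurin genes had a peak in 3 of 5 cases in the full Ctrl list, beside 6.88% of all genes. Among its 161 peaks of highest fold enrichment they had one in 0 of 5. Among those peaks PPM1 had 2 of 12, PP2A 2 of 16 and PP1 1 of 43, beside 0.758% of all genes. The 0 depends on ranking by fold. By -log10 q the Ctrl peak at Ppp3ca (13.8) stood above those at Ppp1r12b, Ppp2r5e and Ppm1b (9.23 each), which passed the cut. Ppp3ca encodes a catalytic A subunit (Gene ID 19055, chromosome 3, 136669714 to 136937727 in mm10). Its KO PHF2 peak spanned 136669682 to 136671033. It had a fold enrichment of 10.6 over the caller's local background and 26 tags at its summit (17.0 to 38.1, the exact Poisson interval at 95%). Tags are the pieces of DNA counted at the summit, the highest point of a peak, and were recovered from the authors' fold enrichment and p-value. The Ctrl PHF2 peak spanned 136669332 to 136672044. It had a fold enrichment of 8.65 and 39 tags (27.7 to 53.3).

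The Ctrl peak at Ppp3ca was the widest at any phosphatase gene, at 2713 bp, and the KO peak of 1352 bp lay wholly inside it. Their summits were 10 bp apart, 1090 bp (KO) and 1080 bp (Ctrl) inside the lower annotated end of the gene. The order of the libraries depended on the quantity: fold enrichment was higher in KO, and tags were fewer in KO by a ratio of 0.667. The local backgrounds in the caller's model were 0.584 in KO and 2.04 in Ctrl, and the fold is the scaled signal over this background with 1 added to each. The tag intervals overlapped, and the libraries were of like size by the caller's own scaling (KO over Ctrl 1.01). Fold enrichment placed the peak 7th of 161 in the KO list and 199th of 1621 in the Ctrl list.

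The other calcineurin genes with a peak had it in the Ctrl list alone. Ppp3r1 encodes calcineurin B, the calcium-binding regulatory subunit. Its peak (chromosome 11, 17159575 to 17160059) had a fold enrichment of 8.21 and 17 tags (9.90 to 27.2). Ppp3cb encodes another A subunit, and its peak (chromosome 14, 20545985 to 20546356) ranked 1574th of 1621 by fold enrichment, at 4.23 with 18 tags (10.7 to 28.5) on a background of 2.0. The summit lay 504 bp downstream of the Ppp3cb start and 224 bp from that of the neighbouring locus 1810062O18Rik, so the summit lies within 1 kb of both starts. Ppp3cc, the third catalytic gene, and Ppp3r2, a second calcineurin B gene, had no peak in any list.

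The partners and targets of calcineurin that were listed by name had no PHF2 peak. The list held the inhibitors Rcan1, Rcan2 and Rcan3, the target factors Nfatc1 to Nfatc4, the inhibitor Cabin1, the anchoring genes Akap5, Myoz1 and Myoz2, and 0 of the 11 had a peak in KO or Ctrl. The Wilson upper limit of 25.9% for 11 genes includes the shares of all genes, 0.699% in KO and 6.88% in Ctrl.

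**Figure D2:**
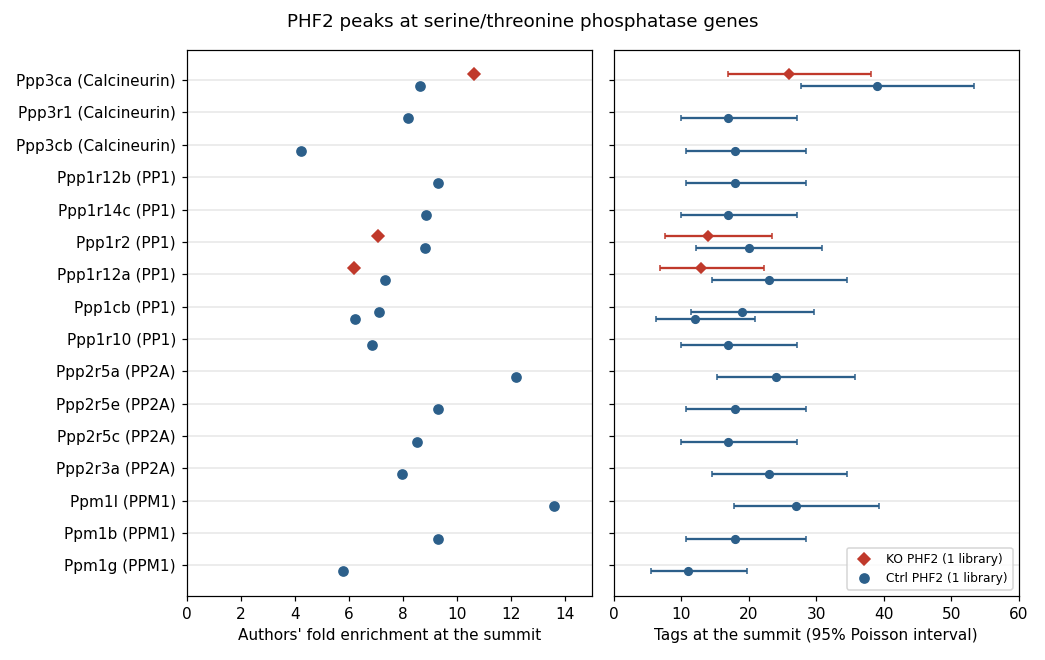
Authors' fold enrichment (left) and recovered tags at the summit with exact Poisson 95% intervals (right) for each PHF2 peak at a phosphatase gene, with KO PHF2 as red diamonds above Ctrl PHF2 as blue circles, 1 library each. The 3 genes with both show fewer KO than Ctrl tags with overlapping intervals, but at Ppp1r12a the KO and Ctrl peaks are separate sites, 161 bp apart. At Ppp3ca the KO fold is nevertheless the higher.

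Among the PP1 genes the catalytic subunit with peaks was Ppp1cb (Gene ID 19046, chromosome 5, 32458848 to 32493713), which encodes PP1 beta, the isoform that joins the myosin-targeting subunits. It had no KO peak and was the member with more than a single Ctrl peak. The first Ctrl peak (32459330 to 32459850) had a fold enrichment of 7.11 and 19 tags (11.4 to 29.7), and the second (32460245 to 32460546) had 6.24 and 12 tags (6.20 to 21.0). The genes of the other PP1 catalytic subunits, Ppp1ca, Ppp1cc and Ppp1ccb, had no peak.

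Of the 39 PP1 regulatory genes, 2 had a KO peak (5.13%, Wilson interval 1.42 to 16.9, beside 0.699% of all genes). A Ctrl peak was found at 5 (12.8%, 5.60 to 26.7, beside 6.88% of all genes). Ppp1r2 encodes inhibitor-2, a protein that binds and restrains the PP1 catalytic subunit (Gene ID 66849, chromosome 16, 31251541 to 31275277). Its KO peak (31274658 to 31275047) had a fold enrichment of 7.09 and 14 tags (7.65 to 23.5). Its Ctrl peak (31274525 to 31275192) had 8.83 and 20 tags (12.2 to 30.9). The KO peak lay within the Ctrl peak, with summits 99 bp apart, and the tag intervals overlapped.

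The myosin phosphatase targeting subunits direct PP1 to myosin. Of the 3 such genes, Ppp1r12a (Gene ID 17931, chromosome 10, 108162092 to 108279985) had a peak in both lists. The KO peak (108163149 to 108163440) had a fold enrichment of 6.20 and 13 tags (6.92 to 22.2), and the Ctrl peak (108161892 to 108162987) had 7.35 and 23 tags (14.6 to 34.5). They did not overlap: 161 bp separated the Ctrl peak from the KO peak, and the KO summit lay 860 bp further into the gene. Ppp1r12a is therefore shared by gene but not by position.

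Ppp1r12b, the second myosin-targeting gene, had a Ctrl peak alone (chromosome 1, 134955085 to 134955958), where fold enrichment was 9.32 with 18 tags (10.7 to 28.5). The third, Ppp1r12c, had none. Ppp1r14c encodes an inhibitor of PP1 whose potency rises when it is phosphorylated. Its Ctrl peak (chromosome 10, 3366357 to 3367222) had a fold enrichment of 8.84 and 17 tags (9.90 to 27.2), and the other 4 Ppp1r14 genes had no peak. Ppp1r10 encodes PNUTS, a nuclear subunit that brings PP1 to transcribing RNA polymerase. Its Ctrl peak (chromosome 17, 35917155 to 35917446) was 292 bp wide, the least width in the list, with a fold enrichment of 6.84 and 17 tags (9.90 to 27.2). It also lay within reach of the neighbouring gene Mrps18b, whose start was 868 bp from the summit, against 112 bp for the nearest start of Ppp1r10.

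The other 34 PP1 regulatory genes had no peak in either PHF2 list. They include Ppp1r15a and Ppp1r15b, which direct PP1 to the translation factor eIF2 alpha, the nuclear subunit genes Ppp1r7 and Ppp1r8, and the remaining 5 glycogen-targeting genes Ppp1r3b, Ppp1r3d, Ppp1r3e, Ppp1r3f and Ppp1r3g.

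PP2A is built from a scaffold A subunit, a catalytic C subunit and an exchangeable B subunit. No PP2A gene had a KO PHF2 peak (0 of 16, Wilson upper limit 19.4%, beside 0.699% of all genes). In the Ctrl list the catalytic genes Ppp2ca and Ppp2cb, the scaffold genes Ppp2r1a and Ppp2r1b and the 4 B genes (Ppp2r2) had none. B prime (Ppp2r5) genes had a Ctrl peak in 3 of 5 cases (Wilson interval 23.1 to 88.2%) and B double prime (Ppp2r3) genes in 1 of 3 (6.15 to 79.2%). The classes at 0 have upper limits of 49.0 to 65.8%, which include the 6.88% of all genes and overlap the intervals of the other classes.

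Ppp2r5a (Gene ID 226849, chromosome 1, 191351981 to 191397041) had the PP2A peak of highest fold enrichment (191395673 to 191397035), at 12.2, and the summit held 24 tags (15.4 to 35.7). Ppp2r5e had a peak (chromosome 12, 75595988 to 75596781) of fold enrichment 9.32, with 18 tags (10.7 to 28.5). B prime subunits steer PP2A to substrates of several signalling pathways. Ppp2r5c had its peak (chromosome 12, 110485718 to 110486229) 38794 bp inside the gene, with a fold enrichment of 8.55 and 17 tags (9.90 to 27.2). Ppp2r3a, whose product binds calcium, had a peak (chromosome 9, 101251234 to 101251833) of fold enrichment 7.97, with 23 tags (14.6 to 34.5). Just outside the 1 kb limit was Ppp2r5d, with a Ctrl peak of fold enrichment 4.49 and 9 tags at 1772 bp, and the next was Ppp4c at 5476 bp (5.83, 14 tags).

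PP2A also works in larger assemblies and under its own regulators. A list of 20 such genes had no KO peak and a Ctrl peak at 5, or 25%, read against 6.88% of all genes. Of the 10 genes for STRIPAK, a complex in which striatins act as PP2A B subunits, 4 had a Ctrl peak: Slmap (fold enrichment 10.2), Strn3 (10.1), Strn (5.51) and Fgfr1op2 (4.72). Of the other 10, Anp32a (9.19), which encodes a PP2A inhibitor, had one, and Ptpa, Ppme1, Lcmt1, Igbp1, Set, Ensa, Arpp19, Cip2a and Tiprl had none. A list of 9 PP1 docking genes with other symbols, among them Phactr1 to Phactr4, had none in either PHF2 list (Wilson upper limit 29.9%). Of 9 further phosphatase genes of the PPM and PPP classes, none had a KO peak, and the Akt phosphatase gene Phlpp1 (6.45 and 5.85 at its 2 peaks) and Pptc7 (6.02), which encodes a mitochondrial phosphatase, had Ctrl peaks.

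Among the PPM1 genes none had a KO peak (Wilson upper limit 24.25%, beside 0.699% of all genes). In the Ctrl list 3 of 12 had a peak (25%, 8.89 to 53.2, beside 6.88% of all genes). Ppm1l encodes a membrane-bound phosphatase that restrains stress-activated kinase signalling (Gene ID 242083, chromosome 3, 69316918 to 69560798). Its peak (69316218 to 69318018) had the highest fold enrichment at any phosphatase gene, at 13.6, and ranked 10th of 1621. Its summit held 27 tags (17.8 to 39.3), fewer than the 39 of the Ctrl peak at Ppp3ca. Ppm1b, which encodes a broad-acting enzyme of the class, had a peak (chromosome 17, 84958018 to 84958651) of fold enrichment 9.32, with 18 tags (10.7 to 28.5). Ppp1r12b, Ppp2r5e and Ppm1b share these values because their tags and local background (0.361) were the same.

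Ppm1g, whose product acts on splicing factors, had a peak outside its gene (chromosome 5, 31201990 to 31202288; fold enrichment 5.78, 11 tags, 5.49 to 19.7). It lay 380 bp beyond the far end of the gene, and no other peak counted at these genes lay outside its gene. Its summit was 18406 bp from the start of Ppm1g and 97 bp from a start of the neighbour Zfp513.

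Together the Ctrl list held 17 peaks at these genes, with 11 to 39 tags at the summit (median 18) against a median of 15 over the list. Their fold enrichment ran from 4.23 to 13.6 with a median of 8.55, against 6.37 over the list, and 14 of the 17 lay above that list median. Most phosphatase peaks thus stood in the upper part of the Ctrl list by fold. Widths ran from 292 to 2713 bp with a median of 634 bp, against 505 bp. The 3 KO peaks had 13, 14 and 26 tags, and the weakest peak of the whole KO list had 10. Of the 17 Ctrl peaks, 2 overlapped a KO peak (11.8%, Wilson interval 3.29 to 34.3), against 114 of 1621 over the list (7.03%, 5.89 to 8.38).

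**Figure D3:**
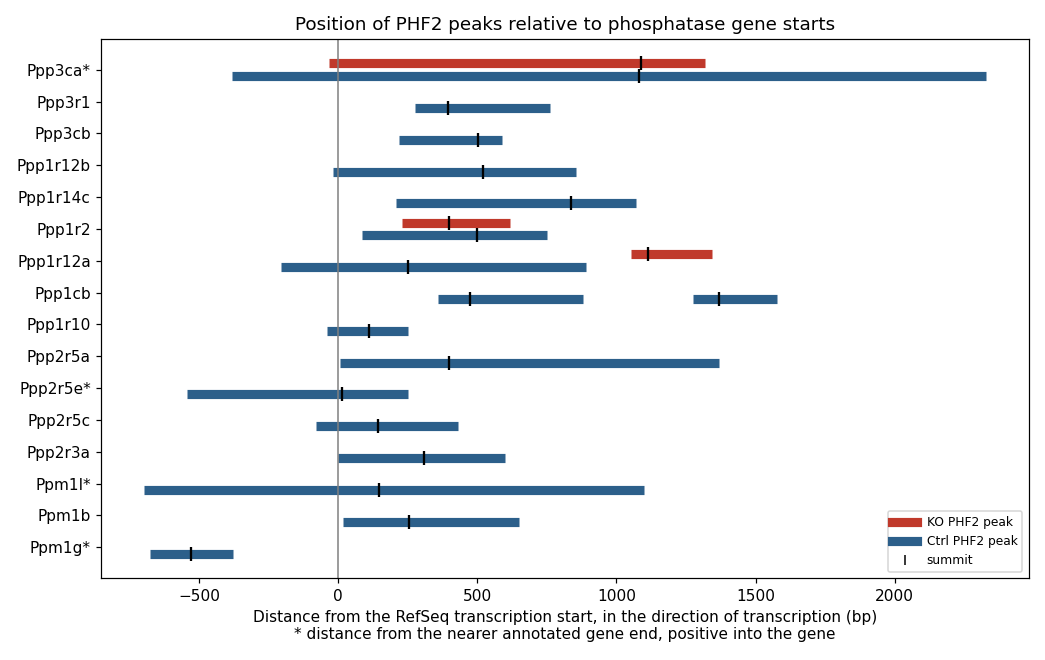
Extent (bars) and summit (black ticks) of KO PHF2 peaks (red) and Ctrl PHF2 peaks (blue) at phosphatase genes, as distance in bp from the RefSeq start next to the summit, or from the nearer gene end for the 4 genes with an asterisk. Except at Ppm1g, every summit lies on the gene side of the line, and the KO peak at Ppp1r12a lies beyond the Ctrl peak.

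Most summits lay inside the gene and near a start, apart from that of Ppm1g. RefSeq promoter windows with strand matched 70 of the 87 genes and 13 of the 16 with a Ctrl peak, and Ppm1l, Ppp2r5e and Ppp3ca had no entry. At the 12 of these 13 genes with a peak within 2 kb of an own start, all 13 Ctrl summits lay downstream of it, by 112 to 1368 bp with a median of 397 bp. Counted from the nearest start of any gene, 12 of the 14 summits within 2 kb were downstream, and those of Ppp3cb and Ppm1g were upstream of the neighbours named above. Counted in that way over the whole Ctrl list, 941 of the 1222 summits within 2 kb of a start were downstream (77.0%). Peaks were counted at phosphatase genes anywhere inside the gene but at most 1 kb outside it, which favours downstream summits. The whole list had no such limit. At Ppp1r2 and Ppp1r12a the KO summits were 399 and 1112 bp downstream. A Ctrl peak within 1 kb of an annotated end was found at 14 of the 87 phosphatase genes (16.1%), beside 5.6% of all genes. These were 87.5% of the phosphatase genes with a Ctrl peak, against 81.4% of all genes with one. The exceptions were Ppp2r5c and Ppm1b, whose summits lay 141 and 255 bp downstream of internal starts. Starts of other genes also lay near these summits: Gm19605 at 247 bp for Ppp2r5c and 1110020A21Rik at 546 bp for Ppm1b.

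The bases before the start are shown for 4 genes: Ppp2r5a with the highest fold enrichment at a known start, Ppp1r2 and Ppp1r12a with peaks in both libraries, and Ppp2r5c at its internal start. Each is the 250 bases up to the start from RefSeq (GRCm38.p6, the assembly of mm10), 5′ to 3′ on the gene's strand, with CG dinucleotides in capitals.
Ppp2r5a, chr1:191397042-191397291, minus strand: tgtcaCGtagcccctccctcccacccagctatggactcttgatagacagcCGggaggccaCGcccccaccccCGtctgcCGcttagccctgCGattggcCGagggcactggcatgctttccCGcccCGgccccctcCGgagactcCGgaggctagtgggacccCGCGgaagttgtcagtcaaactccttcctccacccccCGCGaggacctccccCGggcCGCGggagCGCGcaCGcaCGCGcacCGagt
Ppp1r2, chr16:31275278-31275527, minus strand: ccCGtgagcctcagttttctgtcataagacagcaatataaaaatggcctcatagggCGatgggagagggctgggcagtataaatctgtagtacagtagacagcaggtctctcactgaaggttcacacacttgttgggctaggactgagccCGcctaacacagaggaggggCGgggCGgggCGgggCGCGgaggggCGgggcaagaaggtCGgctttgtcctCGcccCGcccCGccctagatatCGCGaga
Ppp1r12a, chr10:108161848-108162097, plus strand: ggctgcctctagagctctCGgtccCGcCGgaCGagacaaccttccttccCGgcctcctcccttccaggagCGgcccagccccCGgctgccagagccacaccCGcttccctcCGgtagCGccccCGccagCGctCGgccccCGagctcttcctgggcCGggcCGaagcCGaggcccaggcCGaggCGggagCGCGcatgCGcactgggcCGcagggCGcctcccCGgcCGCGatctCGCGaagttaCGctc
Ppp2r5c, chr12:110485547-110485796, plus strand: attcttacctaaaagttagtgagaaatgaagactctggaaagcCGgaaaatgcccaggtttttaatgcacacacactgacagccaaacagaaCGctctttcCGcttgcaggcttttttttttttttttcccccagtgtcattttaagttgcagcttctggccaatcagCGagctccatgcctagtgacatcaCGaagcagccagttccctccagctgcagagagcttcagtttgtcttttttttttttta

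Ppp1r12a has 30 CG dinucleotides in these 250 bases, Ppp2r5a 24 and Ppp1r2 15, whereas the internal start of Ppp2r5c has 5. The Ctrl peaks cover 206 of the bases at Ppp1r12a, 79 at Ppp2r5c and none at Ppp2r5a or Ppp1r2, whose peaks begin past the start. The GC box letters GGGCGG, on either strand, occur 6 times at Ppp1r2. They occur a single time at Ppp2r5a and not at the starts shown for Ppp1r12a and Ppp2r5c.

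Over the full windows of 300 bases, CG content did not separate phosphatase genes with a peak from the rest. The 19 windows of genes with a Ctrl peak, each annotated start counted, had a median of 22 CG dinucleotides (3 to 40), the 67 windows of phosphatase genes without had 23 (1 to 48). Windows of all genes with a Ctrl peak had a median of 24, and those of all protein-coding genes 13. The GC box was in 68.4% of windows with a peak at the gene, in 67.2% of those without, in 64.9% for all genes with a Ctrl peak and in 46.2% of all. The longer KLF-type motif CCCGCCCC, which overlaps the GC box, was in 31.6%, 34.3%, 33.5% and 22.1% in the same order. The cAMP response element TGACGTCA was in none of the 19 windows, in 10.4% of the 67, in 2.15% for all genes with a Ctrl peak and in 2.23% of all. These letters were thus found at phosphatase genes without a peak, in 7 windows. The AP-1 letters TGACTCA were in no phosphatase window, in 2.79% for all genes with a Ctrl peak and in 4.66% of all. In the order of the GC box, the E-box CACGTG was in 0%, 2.99%, 8.49% and 7.84%. The E2F-type motif TTTCCCGC was in 5.26%, 2.99%, 1.86% and 1.41%, and the ETS-type letters CCGGAAG in 0%, 11.9%, 11.8% and 11.6%. With 19 windows, a value of 0% allows up to 15.8% if each window counts as a separate unit. The 19 windows came from 13 genes and the 67 from 57 genes, so a limit counted by gene is higher. All motifs were searched on both strands, and a match is not a bound site.

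**Figure D4:**
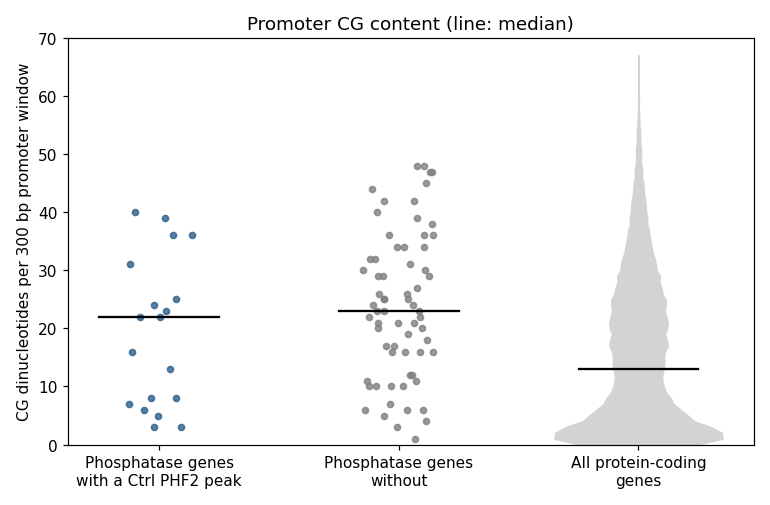
CG dinucleotides per promoter window of 300 bp for phosphatase genes with a Ctrl PHF2 peak (blue points, 19 windows), phosphatase genes without (grey points, 67 windows) and all protein-coding genes (grey outline, width by number of windows), with medians as black lines. The medians are 22, 23 and 13.

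Where a gene had several starts, the CG content of the start beside the peak varied. In 4 of 5 such genes the Ctrl peak lay at the start whose window held the most CG dinucleotides: 22 at Ppm1b against 3 and 7 at its other starts, 24 at Ppp1r10 against 5, 23 at Ppp2r3a against 3, and 16 at Ppp1r12b against 8. Ppp2r5c was the exception, with 6 at the internal start beside the peak and 36 at the upstream start, where no peak was found.

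Gene length moved with peak presence. Phosphatase genes with a Ctrl peak had a median length of 83.1 kb and those without 22 kb. Among all protein-coding genes the medians were 44.3 and 16.2 kb. Of the 56 phosphatase genes longer than the median gene, 26.8% had a Ctrl peak (Wilson interval 17.0 to 39.6), against 9.93% of all genes that long. Of the 31 others 3.23% had one (0.572 to 16.2), against 3.82% of all genes of that length. The exception among the 31 was Ppp1r10. The part of gene length in the count was not tested.

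Peak lists do not measure expression, and markers are given by where peaks lay. Of 10 skeletal muscle fibre marker genes, none had a KO peak and 3 had a Ctrl peak (Des, Casq1 and Pvalb), beside 6.88% of all genes. Of 4 endothelial markers, none had a KO peak and 2 had a Ctrl peak (Cdh5 and Flt1). The 12 markers of satellite, fibro-adipogenic, immune and smooth muscle cells had none in either list. These counts are too small to check the tissue label. In whole muscle, binding in fewer cells of a type and less binding per cell cannot be told apart.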

How the data were processed

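The 4 deposited peak lists (10 columns in the narrowPeak layout) were used with the authors' values as they stand. Bowtie2, MACS2 and mm10 are named in the submitters' processing notes, and the sources used here give no versions, settings or control library. The authors' fold enrichment is a ratio over the caller's local background. The authors' -log10 p and -log10 q and the deposited score, which restates the q, refer to the same background. Read totals and signal tracks were not used.

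Gene ends were taken from RefSeq (GRCm38.p6, which is mm10) and starts from its promoter windows (250 bases before to 50 after a start). Summit tags were solved from fold and -log10 p as whole multiples, within 0.005, of 0.609 in KO and 0.649 in Ctrl, which held for all pairs of values (100%). Where there were 2 solutions the background had to be a level the caller can give, which left 1 pair of the Ctrl list unsettled, at none of these genes. The best other factors gave 61.9% and 49.8%. A KO to Ctrl size ratio of 1.01 assumes the same fragment length. Intervals are Wilson or exact Poisson at 95% and cover counting error only. A count of 0 was limited by 3 counts.

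Members, lists and alternatives were chosen with earlier results of these data known. Named were all members with a peak, those nearest the window's limit and, after their values were seen, some members without. Tools were pandas 2.3.3, SciPy 1.17.1 and NumPy 2.4.6 under Python 3.11.15, with figures in matplotlib 3.10.9.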

Additional observations from a re-analysis of the deposited data

How the results depend on the processing

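No paired analysis was possible because there was 1 library per group, and none could be left out. The IgG count was 0 under every alternative. The counts in the PHF2 lists stayed within 1.5 times their values above with the gene body alone, a window of 5 kb, gene ends alone, the summit alone, merged peaks and each peak given to the gene with the closest end. Over these the KO count was 2 to 3 genes and the Ctrl count 14 to 17. Of all 21887 genes, 1615 had a Ctrl peak with the 5 kb window (17 members) and 1225 at gene ends alone (14 members). With each peak given to the gene with the closest end, 1331 had one (15 members). Without the Ppm1 genes the Ctrl count of members was 13. Limiting the Ctrl list to its strongest 161 peaks, the length of the KO list, left 5 members and 5 Ctrl peaks, of which 0 overlapped a KO peak. Of all genes 0.758% then had a Ctrl peak. At a -log10 q of at least 5 the KO list kept 1 member, Ppp3ca, beside 0.215% of all genes, and 1 Ctrl peak was shared. A Ctrl peak was kept by 14 members, beside 3.82% of all genes. A reciprocal overlap of at least 50% left 1 shared peak, at Ppp1r2. By contrast, counting peaks within 500 bp as shared gave 3. At the -log10 p of the weakest KO peak (6.19), 15 members had a Ctrl peak, without Ppp3cb, beside 1380 of all 21887 genes. With the 2 genes that the rule leaves out, an alternative chosen after seeing the data, 18 genes had a Ctrl peak. Depth limits each statement on a missing peak: the upper quartile of summit tags in the Ctrl list was 19, and the number of reads at sites without a peak is unknown.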

Other observations

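The 2 glycogen-targeting PP1 genes outside the rule had no KO peak and a single Ctrl peak each. That at Ppp1r3a (chromosome 6, 14754549 to 14755335), the muscle subunit that holds PP1 on glycogen, had a fold enrichment of 6.67 with 19 tags. That at Ppp1r3c (chromosome 19, 36736392 to 36736708) had 6.94 with 13 tags. None of the 5 glycogen-targeting genes inside the rule had a peak.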
